A study of Drosophila melanogaster with 12 samples.

Results

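The genes described here encode protein subunits of the mitochondrial ribosome. They were taken as every row of the deposited gene tables whose symbol begins with mRpL or mRpS followed by a digit, which gave 72 of the 13040 listed genes. By symbol, 46 belong to the large subunit (mRpL) and 26 to the small subunit (mRpS). The human counterparts of mRpS18A and mRpS30 sit in the large subunit, so the split by symbol may not be exact for these genes. RNA was measured by sequencing of polyA-selected libraries from whole adult flies of Drosophila melanogaster in the Canton S background, 10 to 11 days old. The 12 libraries form 4 groups of 3. Wildtype flies carried no AKHR mutation and had no obese parent. The het flies were AKHR +/-, with 1 mutant copy of the gene for the adipokinetic hormone receptor, and also had no obese parent. The paternal flies were AKHR +/- with an obese father, and the maternal flies were AKHR +/- with an obese mother. The background, age and tissue are thus shared by all 4 groups, and the AKHR +/- genotype by 3 of them. The labels give neither sex nor the kind of AKHR mutation, and the het, paternal and maternal flies may also differ in the direction of the cross.

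Mitochondria keep a small genome of their own, and the few proteins it encodes are core parts of the respiratory chain and ATP synthase. They are made on a separate ribosome inside the organelle, whose RNAs come from the mitochondrial genome while its proteins are encoded in the nucleus, made in the cytosol and imported. Loss of single subunits impairs respiration, and in Drosophila the small subunit gene tko is known for a mutant with seizures after mechanical shock.

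Libraries held 17212029 to 21370713 listed reads, and all 72 genes passed the filter on low counts, with 69 to 1216 reads per gene and library. Markers of eye, muscle, testis, accessory gland and gut were present, as in whole flies, while yolk protein genes and the ovary markers vas and nos stood below 13 CPM (counts scaled to library size by TMM and given per 1e6 reads). Accessory gland markers summed to 3076 to 3319 CPM in wildtype and 2644 to 2930 CPM in the AKHR +/- libraries. Eye markers summed to 8751 to 9203 CPM in wildtype and 7792 to 8150 CPM in the others. The gut markers (5770 to 6451 CPM against 5018 to 5628 CPM) and the neuron markers (348 to 351 CPM against 264 to 326 CPM) were also higher in every wildtype library. The summed testis markers went the other way, with 2141 to 2245 CPM in wildtype and 2279 to 2532 CPM in the AKHR +/- libraries. By fitted change against wildtype, 6 of the 6 testis markers were higher in het and in paternal flies, and 4 of 6 in maternal flies. The part of such tissue differences in the results below was not tested. AkhR itself (listed as GRHR) had 77.3 to 84.8 CPM in wildtype, 71.6 to 84.3 in het, 73.7 to 80.8 in paternal and 75 to 84 in maternal libraries, so the transcript level did not separate the genotypes. In whole flies a lower share of a tissue and less RNA per cell cannot be told apart. Maternal replicate 1 stood apart from the other 11 libraries for the mitochondrial ribosomal protein genes, and the main results that use it are given with and without it.

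RNA of the 72 genes was present at similar, moderate levels. Their mean FPKM over 12 libraries (fragments scaled to exonic length and library size, as deposited) ran from 10.5 to 54.1 with a median of 20.7. Of the 72, 68 lay within 2 times that median, and 66 were above the median of all listed genes, 12.9 FPKM. The median was 18.7 FPKM for the large subunit and 22.3 FPKM for the small subunit. For scale, the median was 833 FPKM over 92 cytosolic ribosomal protein genes and 222 FPKM over 61 nuclear genes of oxidative phosphorylation. It was 6.81 FPKM over 23 genes of mitochondrial translation factors and aminoacyl-tRNA synthetases, and 9.67 FPKM over 14 genes of mitochondrial transcription and genome maintenance.

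The highest level belonged to mRpS7, which encodes the counterpart of bacterial S7 in the head of the small subunit. Its FPKM was 54.4 ± 1.03 in wildtype (SD, n = 3), 53.6 ± 0.945 in het, 52.7 ± 1.56 in paternal libraries and 55.5 ± 4.07 in maternal ones. The gene lies on 2L from 10386662 to 10387652 on the plus strand (dm3) and overlaps no other listed gene. Next in order came mRpL53 at 53.5 FPKM, mRpS21 at 51.5 FPKM, mRpL28 at 47.0 FPKM, mRpL24 at 41.2 FPKM and mRpS33 at 38.9 FPKM. These are a mitochondrion-specific large subunit protein (mRpL53), counterparts of bacterial S21, L28 and L24, and a mitochondrion-specific small subunit protein (mRpS33). The value of mRpL53 is uncertain, because the gene (2R, 9841700 to 9843169, plus strand) overlaps AGO1 and CG33155, 1 of them on the same strand. It lies wholly inside the interval of at least 1 of them.

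At the low end stood mRpL39, a mitochondrion-specific large subunit protein, at 10.5 FPKM. With it were mRpL11, the counterpart of a bacterial protein of the factor-binding site, at 11.1 FPKM and mRpL48 at 11.1 FPKM. The lowest of the small subunit were mRpS18B at 12.1 FPKM, mRpS28 at 12.2 FPKM and mRpS35 at 14.3 FPKM. The highest mean was thus 5.13 times the lowest. Of 71 neighbouring pairs in the order of levels, 70 had ranges over the 12 libraries that overlapped, and the exception was mRpL28 (43.6 to 51.3 FPKM) above mRpL24 (39.8 to 43.0 FPKM).

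**Figure D1:**
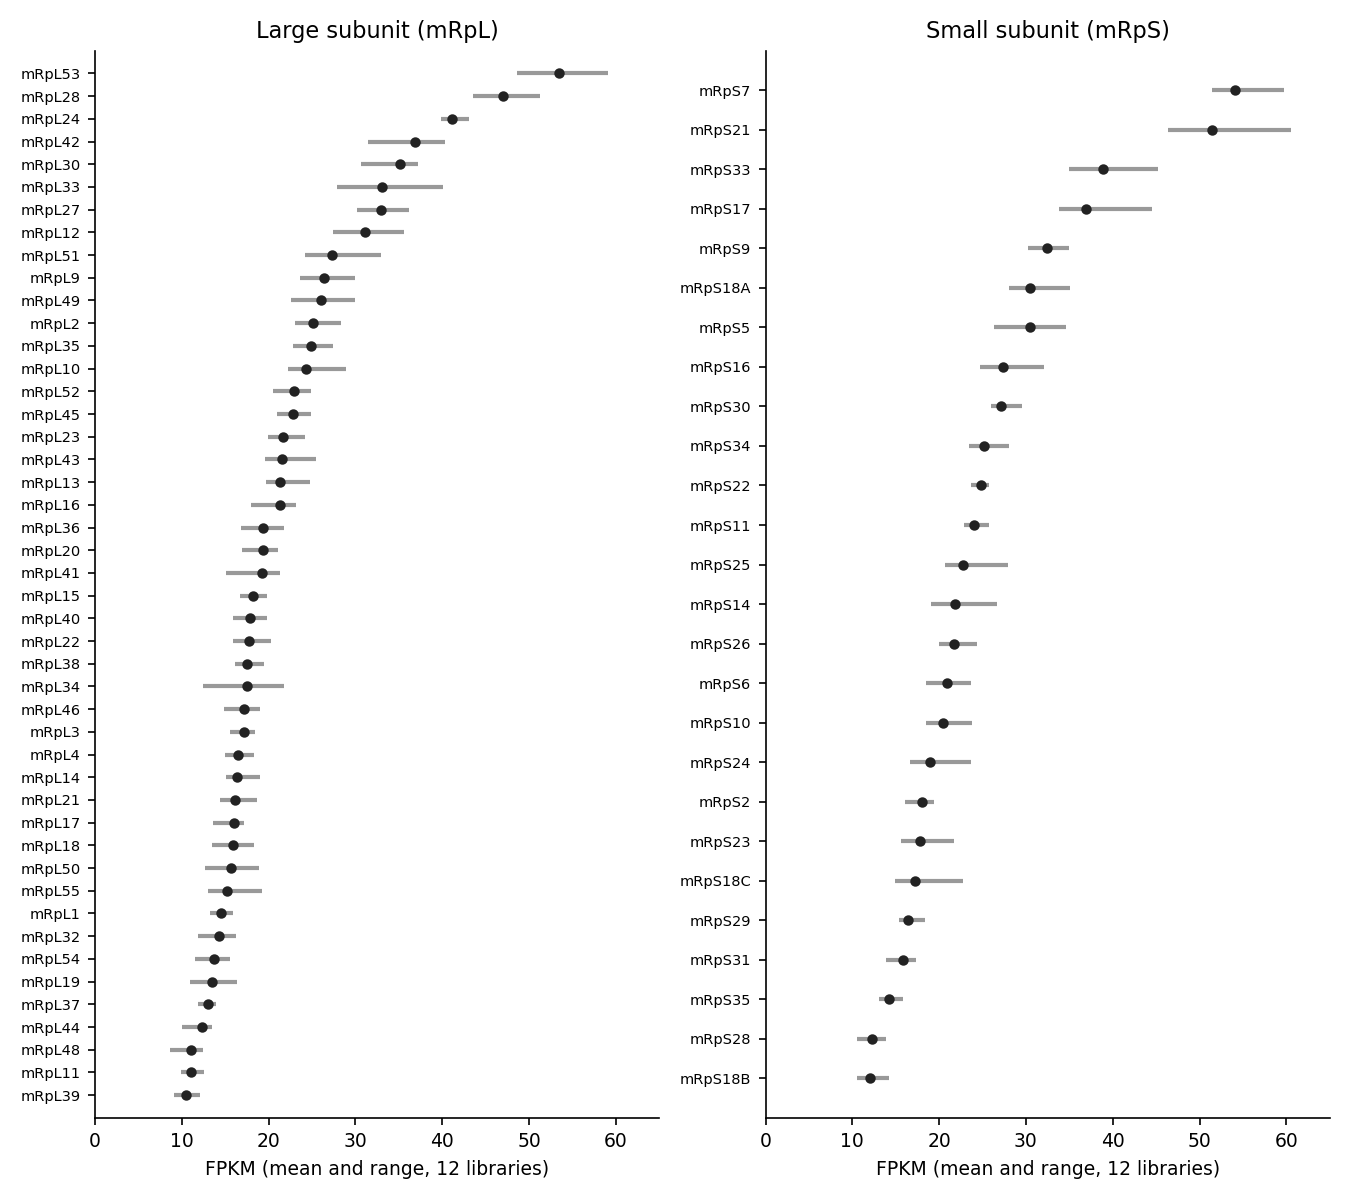
Mean FPKM (points) and lowest to highest value over 12 libraries (grey lines) for each of the 72 mitochondrial ribosomal protein genes, in FPKM, ordered by mean within the large and small subunit. Levels fall gradually from about 54.1 to 10.5 FPKM, and most neighbours overlap.

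The genes were spread over the genome, with 12 on 2L, 12 on 2R, 17 on 3L, 20 on 3R and 11 on X. Their exonic lengths were 282 to 1823 bases with a median of 757, short beside the median of 1791 bases over all genes of at least 1 CPM. Of the 72 intervals, 40 overlapped another listed gene, 38 of them only on the opposite strand. Whether reads were counted by strand is not stated, so reads from such overlaps may be split or shared. Between replicates of a group the genes varied with a coefficient of variation of 1.64 to 13.7%, with a median of 7.20%, against a median of 6.66% over all genes tested. Counting error alone gives 3.10 to 10.4% at these depths, with a median of 5.61%. The lowest spread was that of mRpS22, a mitochondrion-specific small subunit protein, at 32.0 to 34.2 CPM in all 12 libraries. Its 1.64% lay below the lowest counting error of 3.10%, so it cannot be read as a trait of the gene. The most variable was mRpL55, a mitochondrion-specific large subunit protein, at 5.83 to 8.65 CPM, with the highest value in maternal replicate 1.

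Parental obesity and the AKHR genotype were then compared across groups, gene by gene, with edgeR's quasi-likelihood test on the counts and Benjamini-Hochberg adjustment over 12809 genes. WT stands for wildtype, Pat for paternal and Mat for maternal, and the group named first is set against the other. None of the 72 genes passed an adjusted p of 0.05 in any of the 6 comparisons of groups. The share of all genes called, against which these counts of 0 are read, was 0.593% for Het vs WT, 0.523% for Pat vs WT, 0.344% for Mat vs WT, 0.00781% for Pat vs Het, 0.0156% for Mat vs Het and 0.0156% for Mat vs Pat. A test for any difference among the 4 groups also called 0 of 72, against 0.445% of all genes, and 3 of 72 had an unadjusted p under 0.05, against 8.06%. With such shares, less than 1 call among 72 genes is the background. The shares were uneven over the genome. For Het vs WT 2.16% of genes on 2L were called, where 12 of the 72 lie, and 0.0501 to 0.346% on 2R, 3L, 3R and X. DESeq2 also called 0 of 72 in each comparison. In the authors' deposited table the largest score of a member was 3.12, read as minus 10 times log10 of an adjusted p. On that scale 13.0 marks 0.05, and 0 of 72 members were past it in each of the 5 comparisons given. The shares of all genes called by DESeq2 or past the authors' threshold are not given here. These counts of 0 therefore have no background beside them.

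The changes were also small in size. The log2 changes of the 72 genes ran from -0.28 to 0.33 for Het vs WT, from -0.20 to 0.16 for Pat vs WT, from -0.17 to 0.28 for Mat vs WT, from -0.21 to 0.20 for Pat vs Het, from -0.22 to 0.30 for Mat vs Het and from -0.18 to 0.23 for Mat vs Pat. The 95% interval of the change lay wholly within 0.5 log2 units of 0 for 71, 72, 71, 72, 70 and 72 of the 72 genes, in the same order. Changes above that size were therefore outside the interval for nearly every gene, while a change near the median standard error of 0.081 could not be seen at this depth.

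**Figure D2:**
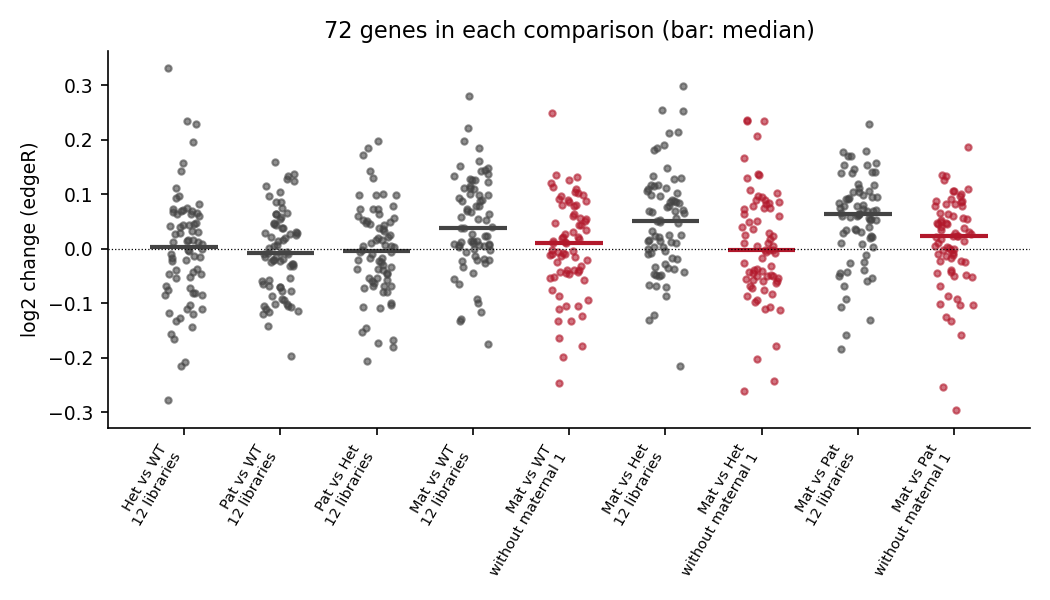
Fitted log2 change of each of the 72 genes (points) in the 6 comparisons of groups, with the median as a bar. Grey points are from all 12 libraries, and red points are from the fit without maternal replicate 1. Medians are near 0 in the comparisons without maternal flies, 0.04 to 0.06 in those with them, and -0.0023 to 0.02 without maternal replicate 1.

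In het against wildtype flies, which by the labels differ in AKHR genotype alone, the genes divided evenly, with 36 of 72 higher and a median log2 change of 0.0035, against -0.0062 over all genes. By unadjusted p under 0.05 there were 6 of 72, 3 higher and 3 lower, against 10.7% of all genes. With maternal replicate 1 left out of the fit there were 7 of 72, against 13.7% of all genes. The 3 libraries of each group did not overlap for 3 genes that were higher (background 9.76%) and 6 that were lower (background 9.63%). Both shares were thus near or below the background.

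The smallest p in this comparison belonged to mRpL41 (FBgn0034001; 2R, 11104529 to 11105118, minus strand), a mitochondrion-specific protein of the large subunit. It had 11.5, 12.2 and 12.7 CPM in the wildtype libraries, 8.82, 10.4 and 10.8 in het, 11.8, 11.4 and 10.6 in paternal and 12.3, 11.9 and 11.6 in maternal. All 3 het libraries lay below all 3 wildtype libraries, while the ranges of the paternal and maternal libraries overlapped that of wildtype. The log2 change in Het vs WT was -0.28 (SE 0.0865, 95% interval -0.46 to -0.10), with an edgeR adjusted p of 0.205, which does not pass.

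The largest positive value was that of mRpL34 (FBgn0083983; 2R, 11986498 to 11986842, plus strand), the counterpart of bacterial L34 and the shortest gene of the set with 282 exonic bases. Its levels were 3.55, 5.05 and 4.65 CPM in wildtype, 5.65, 6.14 and 4.83 in het, 5.16, 5.02 and 4.63 in paternal and 4.95, 4.03 and 5.42 in maternal libraries. Wildtype replicate 1 was the lowest of the 12, and the wildtype and het ranges overlapped. The log2 change in Het vs WT was 0.33 (SE 0.144), with an edgeR adjusted p of 0.414. The same gene had the largest negative value in Mat vs Het, -0.22 (-0.24 without maternal replicate 1), and the largest positive one in Pat vs WT, 0.16.

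For mRpS24, the counterpart of bacterial S3, the het libraries at 12.5, 11.7 and 12.1 CPM lay above the wildtype libraries at 10.2, 10.1 and 10.6 CPM. The log2 change was 0.23 (SE 0.0991) with an edgeR adjusted p of 0.396. The spread is estimated over all 12 libraries, so maternal replicate 1 enters this SE. With that library left out of the fit the change was 0.23 (SE 0.0766, edgeR adjusted p 0.146), which does not pass either. The gene shares 411 bases with CG6182 on the opposite strand, so its reads may not all be its own.

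In paternal against wildtype flies 33 of 72 genes were higher, the median log2 change was -0.0084 against -0.0054 over all genes, and 0 of 72 had an unadjusted p under 0.05, against 10.5% of all genes. With maternal replicate 1 left out of the fit there was 1 of 72, against 13.5% of all genes. The groups did not overlap for 1 higher gene (background 9.34%) and 2 lower ones (background 9.86%). The largest negative value belonged to mRpS23, a mitochondrion-specific protein of the small subunit, with 12.3, 15.2 and 12.5 CPM in wildtype and 11.8, 11.6 and 11.5 CPM in paternal libraries. These groups did not overlap, and wildtype replicate 2 was the highest of all 12 libraries. The log2 change was -0.20 (SE 0.0970), with an edgeR adjusted p of 0.494.

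Between paternal and het flies, which share the AKHR +/- genotype and differ in whether the father was obese, 35 of 72 genes were higher and the median log2 change was -0.0039. Only mRpS6, the counterpart of bacterial S6, had an unadjusted p under 0.05 (log2 change -0.18, edgeR adjusted p 1.00), against 2.11% of all genes. With maternal replicate 1 left out of the fit there were 3 of 72, mRpS6, mRpL50 and mRpL43, against 2.95% of all genes. There was no overlap for 2 higher genes (background 4.28%) and 3 lower ones (background 4.31%). The extremes were mRpL33, the counterpart of bacterial L33, at 0.20 and mRpL50, a mitochondrion-specific protein, at -0.21.

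The comparisons with maternal flies leaned to positive values. In Mat vs WT 53 of 72 genes were higher with a median log2 change of 0.04, for Mat vs Het it was 50 of 72 with a median of 0.05, and for Mat vs Pat 57 of 72 with a median of 0.06. Among all genes 46.6%, 47.7% and 49.0% were higher. These 3 comparisons share the maternal libraries, so they are not separate evidence of one another. Without maternal replicate 1 the counts were 37, 35 and 44 of 72 and the medians 0.01, -0.0023 and 0.02, so the lean rests mostly on that library.

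Genes whose groups did not overlap were also mostly higher in maternal flies. Against wildtype 8 genes lay wholly higher (background 7.22%) and 1 lower (background 7.86%), for Mat vs Het 10 higher (background 4.28%) and 0 lower (background 4.15%), and for Mat vs Pat 6 higher (background 3.25%) and 0 lower (background 3.19%). Without maternal replicate 1 there were 8 higher and 5 lower in Mat vs WT (backgrounds 10.9% and 12.9%), 11 and 6 in Mat vs Het (8.84% and 9.21%) and 7 and 5 in Mat vs Pat (7.43% and 7.42%). By unadjusted p under 0.05 there were 4 of 72 in Mat vs WT (background 12.1%), 6 in Mat vs Het (background 4.15%) and 4 in Mat vs Pat (background 2.75%). Without maternal replicate 1 these counts were 2 (background 8.45%), 6 (background 3.62%) and 2 (background 2.29%).

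The largest value in Mat vs Het was that of mRpL19 (FBgn0037608; 3R, 4499839 to 4500918, plus strand, no overlapping gene), the counterpart of bacterial L19. Its levels were 13.9, 14.2 and 13.6 CPM in wildtype, 13.2, 13.0 and 11.2 in het, 14.2, 13.2 and 13.6 in paternal and 16.7, 14.4 and 15.0 in maternal libraries. The maternal libraries were the 3 highest of the 12, and het replicate 3 was the lowest. The log2 change in Mat vs Het was 0.30 (SE 0.0805, 95% interval 0.13 to 0.47), with an edgeR adjusted p of 0.993, and 0.23 without maternal replicate 1.

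mRpS21, the counterpart of bacterial S21, had 20.3, 22.4 and 20.3 CPM in wildtype, 18.6, 19.7 and 19.4 in het, 21.2, 19.5 and 20.0 in paternal and 24.4, 24.4 and 19.9 in maternal libraries. Maternal replicates 1 and 2 were the highest of the 12, while maternal replicate 3 lay among the other groups. The log2 change in Mat vs Het was 0.25 (SE 0.0796), with an edgeR adjusted p of 0.993, and 0.21 without maternal replicate 1.

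In Mat vs WT the largest positive value was that of mRpS18C (FBgn0039765; 3R, 26249696 to 26250278, plus strand), a protein related to bacterial S18. It had 7.96, 8.60 and 7.97 CPM in wildtype, 9.42, 9.98 and 8.66 in het, 8.95, 9.34 and 8.57 in paternal and 12, 8.96 and 8.96 in maternal libraries. Maternal replicate 1 was the highest by a wide margin, and all 3 wildtype libraries lay below those of het and maternal flies. The log2 change was 0.28 (SE 0.109, edgeR adjusted p 0.317), and 0.13 without maternal replicate 1.

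The most negative value in Mat vs WT was that of mRpS5 (FBgn0044510; 3L, 24530335 to 24536634, plus strand), the counterpart of bacterial S5. It had 59.7, 56.2 and 53.2 CPM in wildtype, 50.6, 52.7 and 47.3 in het, 50.3, 53.1 and 53.6 in paternal and 45.0, 51.0 and 53.8 in maternal libraries. Here maternal replicate 1 was the lowest of the 12, opposite to most of the set. The log2 change was -0.17 (SE 0.0662, edgeR adjusted p 0.304), and -0.11 without that library. In Mat vs Pat the extremes were mRpL50 at 0.23, which was 0.14 without maternal replicate 1, and mRpL33 at -0.18, which was -0.25 without it.

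The summed level of the 72 genes gives the set by library. It was 1336, 1412 and 1364 CPM in wildtype (1370 ± 38.7, SD, n = 3), 1370, 1374 and 1338 CPM in het (1361 ± 19.6), 1345, 1385 and 1351 CPM in paternal (1361 ± 21.6) and 1479, 1390 and 1355 CPM in the maternal group (1408 ± 64.1). Maternal replicate 1 was above every other library, and the other 11 ran from 1336 to 1412 CPM with all groups overlapping. The maternal mean was 1.03 times that of wildtype, and 1.00 times without maternal replicate 1. By replicate number the sums were 1383 ± 66.1 CPM for number 1 (SD, n = 4; 1350 ± 17.7 over the 3 libraries without maternal replicate 1), 1390 ± 15.9 for number 2 and 1352 ± 10.5 for number 3. A test of the replicate sets beside the groups called 0 of 72 genes, against 4.3% of all genes, and 3 of 72 had an unadjusted p under 0.05, against 20.3%, with mRpL10 lowest at an edgeR adjusted p of 0.111.

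**Figure D3:**
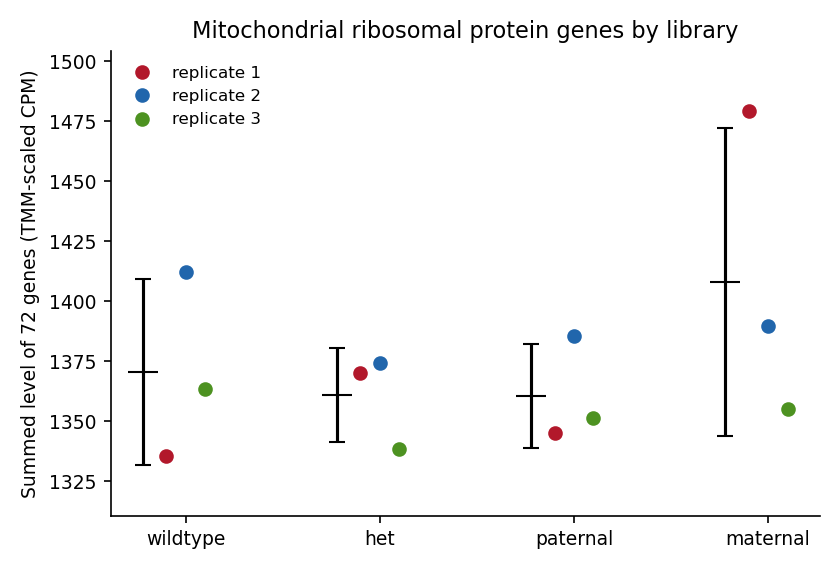
Summed level of the 72 genes in TMM-scaled CPM for each library (points coloured by replicate number), with the mean and SD of each group of 3 at the left. The axis does not start at 0. Maternal replicate 1 at 1479 CPM stands above the other 11 libraries, which lie between 1336 and 1412 CPM.

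Maternal replicate 1 was the highest of the 12 libraries for 35 of the 72 genes, or 48.6%, against 17.5% of all genes tested. Each other library was the highest for 2 to 7 members. Compared with the median of the other 11 libraries it was higher for 64 of 72, with a median log2 difference of 0.12, while 50.2% of all genes of at least 1 CPM were higher. Large and small subunit genes shared in this, with 24 of 46 and 11 of 26 at their highest there, and so did the 32 genes that overlap no other, with 19 at their highest. That this library would differ was known from earlier results of these data, so no test was made.

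Single genes differed in how far they followed. The level in maternal replicate 1 was 1.34 times the median of the other 11 libraries for mRpS18C, 1.29 for mRpS24, 1.29 for mRpL55 and 1.26 for mRpS25, a mitochondrion-specific small subunit protein. It was 0.847 for mRpS5 and 0.895 for mRpL36, the counterpart of bacterial L36. For mRpS24 the library stood at 14.2 CPM, while maternal replicates 2 and 3 had 10.4 and 10.6 CPM.

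**Figure D4:**
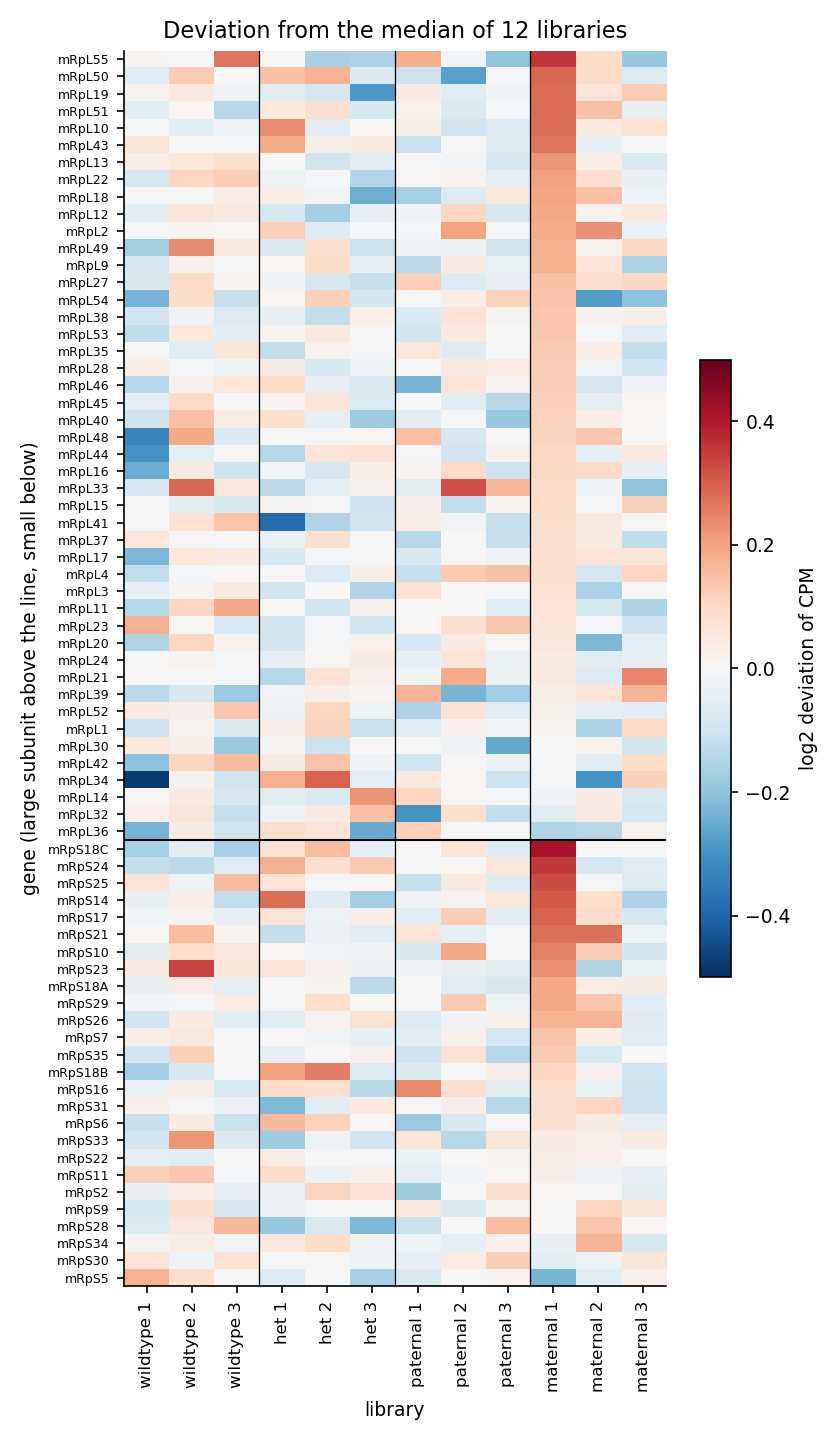
Log2 deviation of each gene's CPM from its median over the 12 libraries, for large subunit genes (above the line) and small subunit genes (below), ordered by the value in maternal replicate 1. Red is higher and blue lower, and colours saturate at 0.5. The column of maternal replicate 1 is red for most genes, with mRpS5 and mRpL36 among the blue ones, and no group of 3 columns stands out.

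Other gene groups moved with that library. Cytosolic ribosomal protein genes summed to 63574 CPM in it, against 54176 to 59119 CPM in the other 11, and 80 of 92 had their highest level there. Nuclear oxidative phosphorylation genes summed to 18050 CPM against 16153 to 16886 CPM, with 55 of 61 at their highest. The 3 neuron markers summed to 264 CPM against 299 to 351 CPM, and the 3 muscle markers to 1220 CPM against 1241 to 1634 CPM. The muscle sum does not stand for each marker, since the median log2 change of the 3 in Mat vs Het was 0.13 with that library and 0.07 without it. The 6 testis markers had a higher sum in it than elsewhere, at 2532 CPM against 2141 to 2432 CPM, but they did not all move alike. In Mat vs WT 4 of the 6 were higher with that library and 6 of 6 without it.

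Exonic length moved with it too. In maternal replicate 1 the median log2 difference from the other 11 libraries was 0.15 over all genes of at most 600 exonic bases, 0.12 from 601 to 900, 0.09 from 901 to 1200, 0.04 from 1201 to 2000 and -0.11 above 2000. For the mitochondrial ribosomal protein genes it was 0.12 over 14 genes, 0.14 over 32, 0.13 over 15 and 0.08 over 11 in the same bands, with no member above 2000 bases. In each of these bands the median of the members lay within 0.05 log2 units of the median of all genes. Single members, such as mRpS18C and mRpS5, lay further away. Their shares at the highest level there were 5 of 14, 15 of 32, 10 of 15 and 5 of 11, against 35%, 39.9%, 33.7% and 20.4% of all genes in those bands.

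Across libraries, the median of all genes up to 900 bases minus that of genes above 2000 bases was 0.24 log2 units in maternal replicate 1 and -0.09 to 0.06 in the other 11. Next highest was wildtype replicate 2 at 0.06, where the 72 genes stood at 0.05, and lowest was maternal replicate 3 at -0.09, where they stood at -0.05. Not all libraries followed this order: the 72 genes were lowest in wildtype replicate 1, at -0.06, where the length difference was -0.04, and in paternal replicate 1 they stood at -0.03 with a length difference of 0.0076. The length bands were chosen after the values were seen, and the part of length or of tissue shares in the level of this library was not tested.

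**Figure D5:**
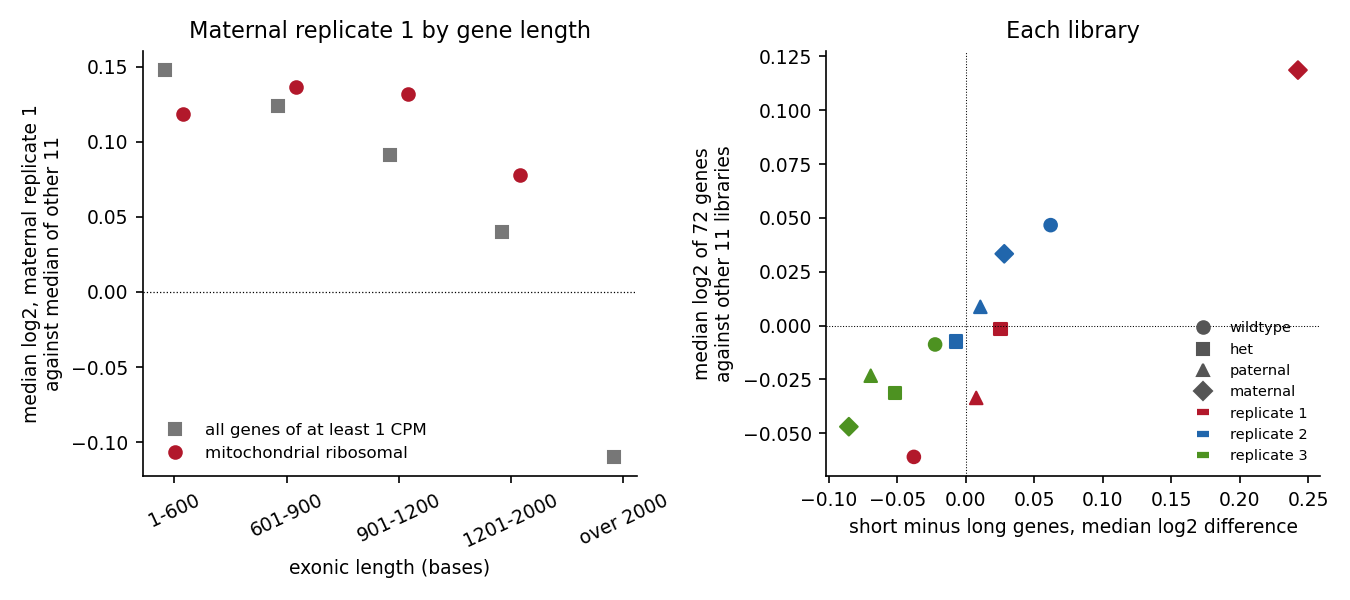
Left, median log2 difference of maternal replicate 1 from the median of the other 11 libraries by exonic length in bases, for all genes of at least 1 CPM (squares) and the 72 genes (circles). Right, for each library, the median log2 difference of short minus long genes (x) and the median log2 deviation of the 72 genes (y), by group (shape) and replicate number (colour). Maternal replicate 1 lies at 0.24 and 0.12, apart from the rest.

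Other parts of the mitochondrial translation system were compared in the same fit. Ribosomal proteins listed under other symbols are tko (S12), bonsai (S15) and Rlc1 (L47). The level of tko was 11.5, 12.9 and 12.9 CPM in wildtype, 11.8, 12.3 and 11.4 in het, 14.1, 12 and 12.6 in paternal and 16.2, 13.8 and 13.1 in maternal libraries. Maternal libraries were all above the wildtype and het libraries, with log2 changes of 0.21 in Mat vs WT (edgeR adjusted p 0.366) and 0.28 in Mat vs Het (0.993). Without maternal replicate 1 they were 0.12 and 0.18. For bonsai the changes were 0.0013 and 0.07 and for Rlc1 0.07 and 0.06 in the same comparisons (without that library -0.05 and 0.01 for bonsai and 0.04 and 0.04 for Rlc1), and 0 of these 3 genes passed in any of the 6.

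Of 23 genes of translation factors and mitochondrial aminoacyl-tRNA synthetases, 0 passed in any comparison by edgeR or DESeq2, 0 to 3 had an unadjusted p under 0.05, and their medians ran from -0.01 to 0.06. Of 14 genes of mitochondrial transcription and genome maintenance 0 passed and 0 had an unadjusted p under 0.05, with medians from -0.02 to -0.0019. Among 7 regulators known to act on growth or mitochondrial genes (such as srl, the fly PGC-1, and foxo) 0 passed, and at most 1 had an unadjusted p under 0.05. Nuclear oxidative phosphorylation genes, with 0 of 61 passing, had medians of 0.04, 0.06 and 0.05 for Mat vs WT, Mat vs Het and Mat vs Pat, and cytosolic ribosomal protein genes, with 0 of 92, had 0.04, 0.06 and 0.06, close to the values of the 72 genes. Without maternal replicate 1 these medians were -0.0038, 0.0070 and -0.01 for the first list and -0.02, 0.01 and 0.0076 for the second. In Mat vs Het 9 of 61 and 21 of 92 had an unadjusted p under 0.05, against 4.15% of all genes, and 7 and 9 without that library, against 3.62%. In Het vs WT 10 of 92 cytosolic ribosomal protein genes had an unadjusted p under 0.05 in the main fit, against 10.7% of all genes. There 1 of the 92 passed with DESeq2 and 2 passed in edgeR without maternal replicate 1. With replicate number as a block RpL38 and RpS21 fell by 0.20 and 0.21 on the log2 scale in Het vs WT (edgeR adjusted p 0.0121 and 0.0264), and RpL38 fell by 0.20 in Pat vs WT (0.0119). The shares of all genes called in these alternative fits are not given here. These few calls therefore cannot be set against a background and are not read as a change of the list.

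The mitochondrial genome supplies what the ribosome translates and its RNAs. Of the 10 listed mitochondrially encoded protein genes 0 passed in the 6 comparisons by edgeR (1 by DESeq2, in Mat vs WT), at most 2 had an unadjusted p under 0.05, and the median log2 change was -0.01 for Het vs WT, -0.38 for Pat vs WT, -0.11 for Mat vs WT, -0.27 for Pat vs Het, -0.23 for Mat vs Het and 0.13 for Mat vs Pat. Without maternal replicate 1 the maternal medians were -0.19, -0.12 and 0.14 in that order. The 10 genes ran from 1.01 to 2943 FPKM, so these medians mix very unlike levels. Their summed levels overlapped, at 8035, 8309 and 5939 CPM in wildtype and 6276, 7028 and 5925 CPM in paternal libraries. The cytochrome oxidase subunit gene mt:CoII had 1287, 1434 and 1090 CPM in wildtype, 1117, 1207 and 996 in paternal and 1536, 1415 and 1288 in maternal libraries, with edgeR adjusted p of 0.555 in Pat vs WT and 1.00 in Mat vs Pat. With replicate number as a block it passed in both, at -0.20 (adjusted p 0.0389) and 0.35 (adjusted p 0.00196). Without maternal replicate 1, and without the block, the change in Mat vs Pat was 0.29 (edgeR unadjusted p 0.0559). The shares of all genes called by DESeq2 or with the block are not given here, so these calls have no background beside them. The large ribosomal RNA of the mitochondrion, mt:lrRNA, was at 1.40 to 3.85 CPM in polyA-selected libraries, which do not measure ribosomal RNA quantitatively.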

How the data were processed

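The authors deposited 5 tables that each set one group beside another. Coordinates are those of dm3, as the file headers (D_melanogaster_Apr_2006) and the submitters' processing notes state. Those notes also name Novoalign and DESeq, without versions. Per the file headers, the deposited columns used here hold raw read counts per gene, FPKM, log2 ratios and adjusted p-values written as a score. Joining them gave 12982 genes counted in all 12 libraries, with 0 disagreements between tables.

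Counts were tested in edgeR 4.0.16 (R 4.3.3): filterByExpr (minimum count 10, minimum total 15) left 12809 genes, TMM scaling, robust quasi-likelihood fit over all 12 libraries, Benjamini-Hochberg adjustment, threshold 0.05. The code was tested on simulated data. Levels are TMM-scaled CPM or deposited FPKM, and deviations use log2 of CPM plus 0.1. Group names follow the labels, so Pat vs Het is paternal against het. The series' design calls the replicates independent. In the main fit p-values rest on the spread within groups of 3 libraries, estimated over all 12 together. Libraries of groups not compared, maternal replicate 1 among them, thus enter every p-value. Alternatives were RLE or no scaling, no filter, DESeq2 1.42.0, only the 6 libraries compared, a replicate block and leaving out each library. No sequences are shown.

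Named genes were those with the extreme changes in each comparison, the extreme FPKM values per subunit, the extreme ratios in maternal replicate 1, and tko, bonsai and mitochondrial ribosomal RNA; others were chosen after their values were seen. The members and lists were chosen with earlier results of these data known. Replicate numbers were treated as pairing because the series' design ties each set of samples to 1 experimental replicate, though the numbers are read from titles. After removing group means, libraries of the same number correlated across genes at r = 0.119 on average and others at -0.0592, and 11 of 18 same-number pairs were above 0.1.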

Additional observations from a re-analysis of the deposited data

How the results depend on the processing

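None of the 72 genes passed in any of 141 combinations of test and alternative setting. The lowest adjusted p among them was 0.0532, for replicate sets. The settings share libraries, so they are not separate evidence of one another. The shares of all genes called in them, the replicate block included, are not given here. In the main fit the highest share among the comparisons of groups was 0.593%, for Het vs WT. Counts of 0 in these settings thus have no background beside them and are not read as evidence of no change. With the replicate block 0 of 72 passed in each comparison, with lowest edgeR adjusted p of 0.107 in Het vs WT and 0.156 in Mat vs WT, and the median log2 changes were 0.0047 in Het vs WT and 0.05 in Mat vs Het; the pairing changed no member's call. The block, other scalings and no filter left the medians between -0.0087 and 0.07. The 12 gene results at the extremes kept their direction in 216 of 216 refits. They were picked as the extremes of these same data and the refits share libraries, so this is no separate evidence for them. With no scaling factors the median in Pat vs WT was 0.01. Leaving out 1 library at a time, the median ran from -0.0092 to 0.03 in Het vs WT, -0.022 to 0.014 in Pat vs WT, 0.0095 to 0.076 in Mat vs WT, -0.017 to 0.0049 in Pat vs Het, -0.0023 to 0.078 in Mat vs Het and 0.022 to 0.105 in Mat vs Pat. The value of -0.0023 is that without maternal replicate 1. Medians this close to 0 have no firm direction. Depth of 69 to 1216 reads per gene limits what single genes can show.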
